A study of Mus musculus with 6 samples.

Results

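The ADAM and ADAMTS metalloproteinase family was examined in the right ventricle (RV) of newborn mice under pressure overload. Members were taken by name, as the listed genes whose symbol is Adam, Adamts or Adamtsl followed by a number. This gave 6 genes among the 617 genes listed in the expression table: Adam9, Adam11, Adamts4, Adamts8, Adamts20 and Adamtsl2. RV tissue was sequenced in 3 libraries from mice that had undergone pulmonary artery banding (PAB) and in 3 libraries from sham-operated mice. All mice were wild-type C57/BL6J, were operated on postnatal day 1 and gave tissue on postnatal day 7, and pups of either sex were used. PAB narrows the outflow of the RV permanently with a ligature whose width is set by a 30-gauge needle. Sham mice had a sham operation on the same day, for which the authors refer to earlier studies. The sources used here do not say whether a library was made from a single mouse or from pooled mice, so the p-values measure the spread between these libraries, which may be technical.

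ADAM proteins are membrane-anchored proteins with a metalloproteinase-like domain and a disintegrin domain. The active members cut other membrane proteins close to the cell surface and so release growth factors, receptors and adhesion molecules, a process called shedding. ADAMTS proteins are secreted, carry thrombospondin repeats that hold them in the extracellular matrix, and cut matrix proteins, among them the large proteoglycans versican and aggrecan. ADAMTS-like proteins keep the thrombospondin repeats but lack the protease domain. In the developing heart, versican-rich matrix fills the cardiac jelly and is removed by ADAMTS proteases as the wall matures. In a mouse annotation (GENCODE release M21, GRCm38) the family has 57 protein-coding genes, 33 ADAM, 19 ADAMTS and 5 ADAMTSL genes. Of these 2, 3 and 1 were listed, and the others are not analysed here. The last row of the table ends part way, so genes may be missing after it, and a gene that was not listed is not shown to be unchanged.

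The members differ in whether they can act as proteases, and this can be read in their coding sequence. An active metalloproteinase of this family holds its zinc ion with 3 histidines in the motif HEXXHXXXXXH, in which X is any residue and the glutamate takes part in catalysis. The motif has 11 residues, of which 4 are fixed. It was present in 20 of 33 ADAM, 19 of 19 ADAMTS and 0 of 5 ADAMTSL proteins translated from the longest annotated coding sequence of each gene. The 33 coding bases of the site are shown 5′ to 3′ to separate the members with an intact site from Adam11, with the codons of the 4 fixed residues in capitals. For Adam11, which has no match, the stretch aligned with the site of Adam9 is shown.
Adam9: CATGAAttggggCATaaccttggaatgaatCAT
Adamts4: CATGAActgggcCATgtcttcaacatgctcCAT
Adamts8: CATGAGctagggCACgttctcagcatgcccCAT
Adamts20: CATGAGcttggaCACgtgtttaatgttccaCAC
Adam11: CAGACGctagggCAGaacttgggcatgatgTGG
All sequences are from GRCm38 and the GENCODE M21 transcripts. The site of Adam9 lies in exon 11 (chr8:24990326-24990358, minus strand, residues 347 to 357). Those of Adamts4 (chr1:171253210-171253915, plus strand, residues 369 to 379) and Adamts8 (chr9:30952721-30953378, plus strand, residues 378 to 388) are both split between exons 3 and 4, in each gene with 10 bases before the junction. In Adamts20 the site is split between exons 8 and 9 (chr15:94353678-94355296, minus strand, residues 399 to 409), with 17 bases before the junction. The Adam11 stretch lies in exon 13 (chr11:102773613-102773645, plus strand, residues 376 to 386) and matched 0 of the 4 fixed residues. Adamtsl2 had no match anywhere in its 957 residues.

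The listed values are counts of reads that had been scaled by a size factor for each library, here called normalized reads, and the table holds only genes that differed at least 2-fold between the same PAB and sham libraries in the authors' comparison. A test on these genes therefore describes how large a difference was against the spread between libraries and is not independent evidence of it. In limma's moderated test, Benjamini-Hochberg adjusted over the listed genes, 617 of 617 (100%) passed a threshold of 0.05, of which 290 (47.0%) were higher and 327 (53.0%) lower in PAB. Size factors differed by at most 1.14-fold, and the listed genes held 301448 to 329192 reads in the sham libraries and 400830 to 659521 in the PAB libraries. PAB replicate 1 stood apart in many genes and held the highest PAB value of 252 of the 290 raised genes (86.9%). Nppa and Nppb, natriuretic peptide genes that mark ventricular load, differed in every PAB library from every sham library. Nppa, which shares 532 exonic bases with the antisense gene Gm13054, had 191.9 to 238.3 normalized reads in sham and 4994.9, 9218.3 and 21963.8 in PAB replicates 3, 2 and 1. Of 46 markers of 9 cell classes that the RV can hold, 4 were listed, and no cardiomyocyte, smooth muscle, epicardial, neural or erythroid marker was among them. The fibroblast gene Dpt (4649.1 to 4759.1 in sham, 1486.8 to 2511.3 in PAB), the endocardial gene Cytl1 (75.5 to 86.1 and 21.3 to 45.6) and the macrophage gene C1qa (642.9 to 700.4 and 270.7 to 346.7) were lower in PAB, and the endothelial gene Vwf was higher (1282.6 to 1487.7 and 1637.2 to 4791.5). Transcripts of Vwf share stretches of up to 186 bases with 48 other genes, so its counts are less certain. Under median-ratio scaling over the listed genes the calls of Dpt (-0.61, limma adjusted p = 0.0572) and Cytl1 (-0.74, adjusted p = 0.0693) were lost. In such bulk tissue, fewer cells of a type and less RNA per cell cannot be told apart, and the part of these markers in the results on the family was not tested.

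Of the 6 members, 5 were higher in PAB (Adamts20, Adamtsl2, Adam9, Adamts8 and Adamts4) and 1 was lower (Adam11). All 4 members with an intact zinc site were among the raised genes, as was Adamtsl2, which has no such site. Of all 617 listed genes, 290 (47.0%) were raised. The median log2 fold change of the 5 raised members was 1.46, beside 1.45 over all raised genes. Over all 6 members it was 1.37, beside -1.03 over all listed genes (-0.44 under median-ratio scaling), and since the table leaves out small changes these medians mainly reflect which direction holds more genes. The sham and PAB values did not overlap for 6 of 6 members, as for 599 of the 617 listed genes (97.1%). Fold changes are given on the log2(normalized reads + 1) scale, with n = 3 libraries per group.

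**Figure D1:**
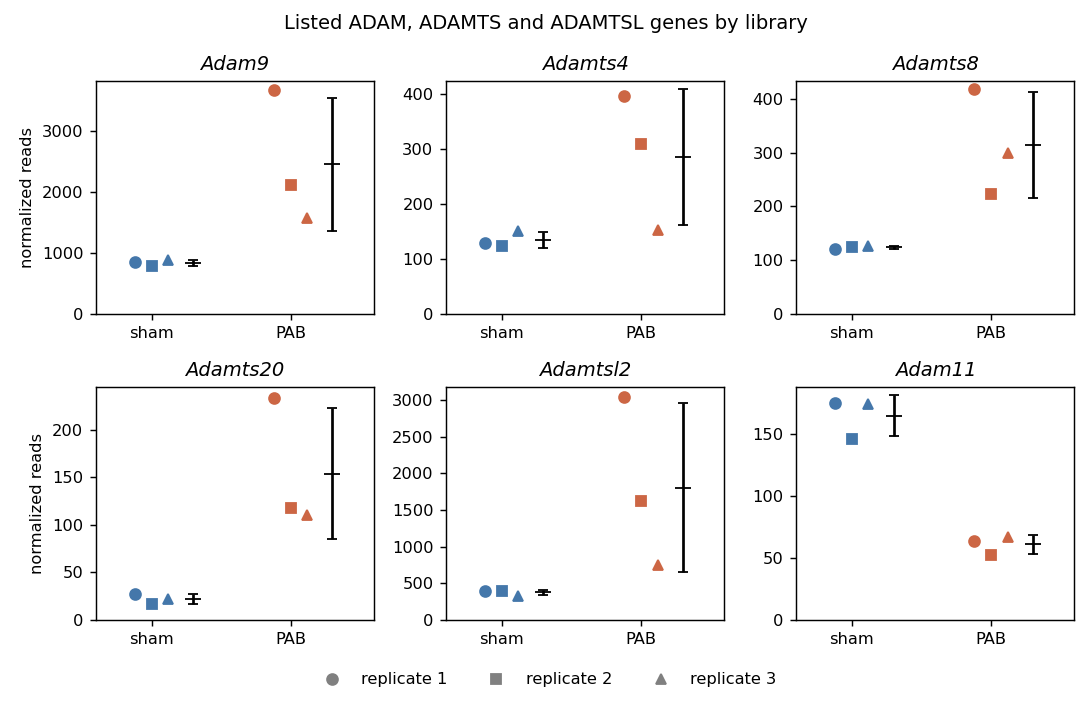
Normalized reads of the 6 members in each library, with the library's replicate number given by the marker shape and the mean ± SD of each group (n = 3) beside the points. In 5 genes the PAB libraries lie above the sham libraries, with replicate 1 highest, and in Adam11 they lie below.

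Adamts20, a secreted protease that cuts versican and is known in mice for the white-belted coat of its mutants, had the largest relative difference of the 6 members. The gene lies on chr15:94270163-94465418, minus strand. It had 27.4, 16.8 and 22.0 normalized reads in sham replicates 1 to 3 and 234.3, 118.0 and 110.3 in PAB replicates 1 to 3. Every PAB library was thus at least 4.99 times the sham mean. The group means were 22.1 ± 5.30 and 154.2 ± 69.5 (SD, n = 3), a log2 fold change of 2.69 with a standard error of 0.37 (limma, adjusted p = 0.00046). In size this ranked 37 of 290 among the raised genes. Reads were taken as the value divided by the library's step, a recovery that could not be checked separately in every library. On that reading the sham values rest on 18 to 29 reads, and the sham library with the fewest had a 95% Poisson interval of 10.7 to 28.4 reads, which covers counting error only.

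Adamts8, a secreted protease first described as an inhibitor of blood vessel growth (chr9:30942562-30963838, plus strand), had the most even sham values of the members. It had 121.1, 123.4 and 125.9 normalized reads in sham and 418.6, 223.1 and 299.0 in PAB. Unlike the other raised members, it was lowest in PAB replicate 2 and not in replicate 3. Means of 123.5 ± 2.40 in sham and 313.6 ± 98.5 in PAB gave a log2 fold change of 1.29 with a standard error of 0.28 (limma, adjusted p = 0.00219). Its exons share 489 bases with the antisense gene Gm29724, and the strand setting of the authors' counting is not given in the sources used here, so reads from the 2 genes may not have been separated.

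Adamts4, also called aggrecanase 1, cuts aggrecan and versican (chr1:171250421-171260637, plus strand). It had the smallest difference of the members and the least secure one. The sham values were 127.7, 123.4 and 151.0 normalized reads and the PAB values 395.1, 308.4 and 152.0. PAB replicates 1 and 2 were 2.95 and 2.30 times the sham mean, whereas PAB replicate 3 was 1.13 times and lay 0.972 normalized reads above the highest sham library. Those neighbouring libraries held 153 and 144 reads, and their 95% Poisson intervals, 129.7 to 179.3 and 121.4 to 169.5, overlapped widely. The means of 134.0 ± 14.9 and 285.2 ± 123.2 gave a log2 fold change of 0.98 with a standard error of 0.34 (limma, adjusted p = 0.0170). The call was lost without sham replicate 1 (adjusted p = 0.0536), without sham replicate 2 (adjusted p = 0.0583) and without PAB replicate 2 (adjusted p = 0.0684) in the same limma fit.

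Adamtsl2 is a secreted matrix protein without protease activity that binds fibrillin microfibrils and the latent TGF-β binding protein LTBP1 (chr2:27079379-27108981, plus strand). It had 397.2, 396.5 and 331.4 normalized reads in sham and 3042.7, 1629.4 and 748.0 in PAB. The PAB libraries were 8.11, 4.34 and 1.99 times the sham mean, the widest spread of any member. From 375.0 ± 37.8 in sham the mean rose to 1806.7 ± 1160 in PAB, and the log2 fold change was 2.05 with a standard error of 0.42 (limma, adjusted p = 0.00188). Without PAB replicate 1 the log2 fold change was 1.56, and the call remained. Thsd4, which RefSeq also names ADAMTSL6, is outside the naming rule and was chosen after its values were seen. It encodes another fibrillin-binding protein and was lower in PAB, with 206.7 to 274.8 normalized reads in sham and 85.2 to 120.2 in PAB and a log2 fold change of -1.15 ± 0.26 (SE; limma, adjusted p = 0.00268). That call was lost under median-ratio scaling over the listed genes (-0.56, adjusted p = 0.0737).

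Adam9, a broadly expressed membrane protease that sheds ligands of the EGF family such as HB-EGF, was the most abundant member (chr8:24949611-25016927, minus strand). It had 846.5, 788.4 and 884.1 normalized reads in sham and 3684.9, 2111.4 and 1578.5 in PAB. Each PAB library was at least 1.88 times the sham mean, and the sham libraries lay close together. Its means were 839.6 ± 48.2 and 2458.3 ± 1095, and its log2 fold change was 1.46 with a standard error of 0.30 (limma, adjusted p = 0.00199).

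Adam11, a membrane protein best known from the nervous system that binds LGI proteins and is not an active protease, was the only listed member lower in PAB (chr11:102761439-102780262, plus strand). It had 175.0, 145.9 and 174.1 normalized reads in sham and 63.9, 52.6 and 66.6 in PAB. The PAB libraries were close to each other, and PAB replicate 1 did not stand apart. The mean fell from 165.0 ± 16.5 to 61.0 ± 7.43, which is 37.0% of sham, with a log2 fold change of -1.42 and a standard error of 0.26 (limma, adjusted p = 0.00117). Under median-ratio scaling it was -0.83 (limma, adjusted p = 0.0163). Lgi3, a secreted protein of the LGI family that pairs with ADAM receptors, was lower as well, at 77.2 ± 24.3 in sham and 22.2 ± 6.60 in PAB. Its log2 fold change was -1.75 with a standard error of 0.38 (limma, adjusted p = 0.00219). The 4 neural and Schwann cell markers were not listed, so no such marker could be set beside Adam11.

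Levels of different genes were compared per kilobase of gene length, on a linear scale. Length was the total of a gene's annotated exonic bases, 7993 for Adamtsl2, 8997 for Adamts20 and 5669 for Adam11. Their transcripts with the longest coding sequence had 3612, 6027 and 5102 bases, so levels of different genes compare only roughly. Adam9 was first and Adamtsl2 second in all 6 libraries. Adam9 had 204.0 ± 11.7 normalized reads per kb in sham and 597.4 ± 266 in PAB, and it made up 59.6 to 61.7% of the summed level of the 6 members in sham and 60.2 to 64.2% in PAB. Adamtsl2 had 46.9 ± 4.73 and 226.0 ± 145. Next in sham came Adam11 at 29.1 ± 2.92, Adamts4 at 27.9 ± 3.09 and Adamts8 at 26.8 ± 0.52, whose ranges overlapped, so their order was not resolved. Adamts20 was the lowest in each sham library, at 2.46 ± 0.589, and was above Adam11 alone in each PAB library, at 17.1 ± 7.72. Adam11 took the last place in each PAB library, at 10.8 ± 1.31, while Adamts8 at 68.0 ± 21.4 and Adamts4 at 59.3 ± 25.6 overlapped there. The ratio of Adamts20 to Adam11 per kb does not depend on the scaling of a library. It was 0.0988, 0.0727 and 0.0797 in sham and 2.31, 1.41 and 1.04 in PAB. Adamts20 was the most raised member and Adam11 the only lower one, so a higher ratio in PAB follows from choosing this pair.

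**Figure D2:**
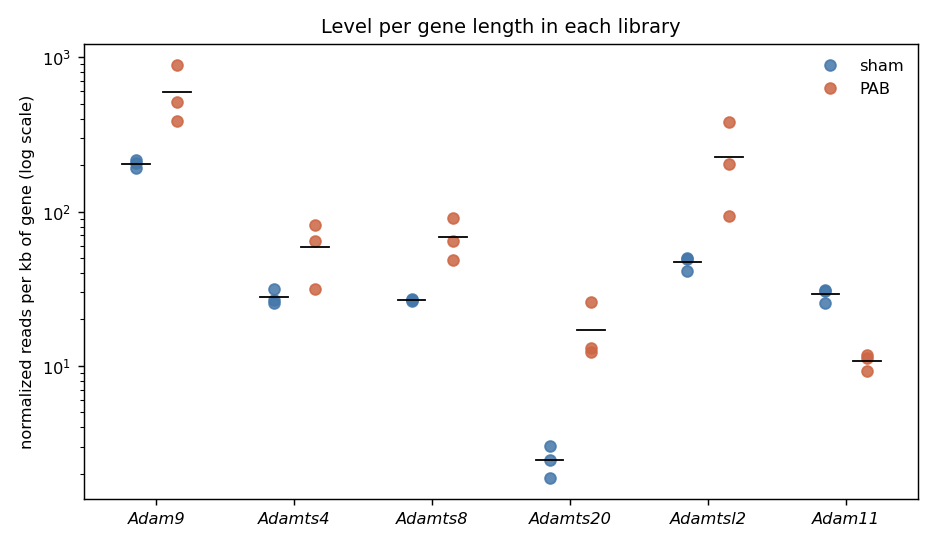
Normalized reads per kb of gene length on a log scale for the 6 members, with 1 point per library and a bar at the group mean (n = 3). Adam9 is the highest in both groups, Adamts20 is the lowest in sham, and Adam11 is the lowest in PAB.

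The PAB libraries varied more than the sham libraries. The coefficient of variation was larger in PAB for 6 of 6 members, as for 457 of 617 listed genes (74.1%). It ranged from 1.94% (Adamts8) to 24.0% (Adamts20) in sham and from 12.2% (Adam11) to 64.1% (Adamtsl2) in PAB. PAB replicate 1 was the highest PAB library in 5 of 5 raised members, and PAB replicate 3 was the lowest in 4 of them, as in 216 of the 290 raised genes (74.5%). Nppa followed the same order of the PAB libraries. Without PAB replicate 1 the log2 fold changes were 2.34 for Adamts20, 1.56 for Adamtsl2, 1.12 for Adam9, 1.06 for Adamts8, 0.69 for Adamts4 and -1.46 for Adam11, and each remained below the adjusted threshold in limma. With each library left out in turn, 5 of 6 members passed every time, the exception being Adamts4, as did 573 of the 617 listed genes (92.9%). Adam11 moved least, between -1.51 and -1.32.

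**Figure D3:**
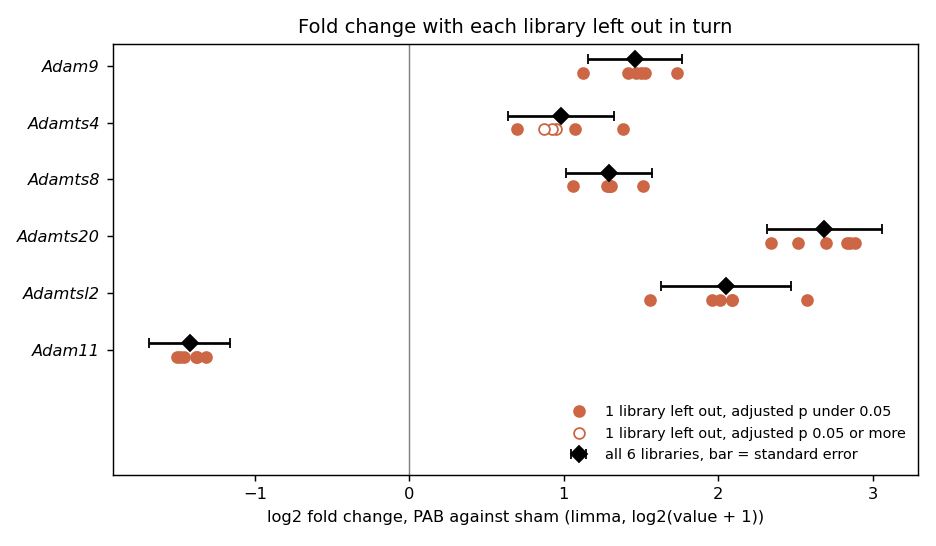
Log2 fold change (PAB against sham, limma) of each member with all 6 libraries (diamond, bar = standard error) and with each library left out in turn (circles, open where the adjusted p was 0.05 or more). Open circles occur for Adamts4, and no member changes sign.

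Proteins that act together with the family were examined from 3 lists holding 157 genes, of which 12 were listed, 10 higher and 2 lower in PAB, where 47.0% of all listed genes were higher. The lists were chosen with results of these libraries known, so their counts are a description. Among 54 other metalloproteinases, convertases and inhibitors, 3 were listed and all were higher, with a median log2 fold change of 1.31. Timp3, the matrix-bound inhibitor of ADAM and ADAMTS proteases, had 574.3 ± 117 normalized reads in sham and 1548.6 ± 771 in PAB (log2 fold change 1.31, SE 0.37, limma adjusted p = 0.00616). Its gene shares 1733 exonic bases with Syn3 on the opposite strand. Timp4, an inhibitor abundant in the heart, had a log2 fold change of 1.12 with a standard error of 0.42 (limma, adjusted p = 0.0220). Pappa, a protease that cuts IGF-binding proteins, had 2.84 to 10.5 normalized reads in sham and 7.95 to 45.8 in PAB (log2 fold change 1.83, SE 0.70, limma adjusted p = 0.0252). Timp4 shares 90 exonic bases with Syn2 on the opposite strand. Both Timp4 and Pappa had overlapping groups. Timp4 lost its call without sham replicate 1 (adjusted p = 0.0871), sham replicate 3 (0.0658) or PAB replicate 1 (0.0656). Pappa lost its call without sham replicate 1 (0.0859), sham replicate 2 (0.0562), PAB replicate 1 (0.102) or PAB replicate 2 (0.0864) in the same limma fit, and its log2 fold change was 2.49 without PAB replicate 3.

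Among 41 ADAMTS substrates and matrix partners, 4 were listed and all were higher, with a median log2 fold change of 2.70. They were Cilp, a matrix protein of cartilage and stressed heart (3.04), Thbs4, a thrombospondin (2.93), Ltbp2, which binds fibrillin (2.47), and Bgn, the small proteoglycan biglycan (1.09). Without PAB replicate 1 the value of Thbs4 was 2.33. Bgn was the most abundant of them, with 7899.8 ± 297 normalized reads in sham and 17198 ± 4473 in PAB (limma, adjusted p = 0.00386). The versican and aggrecan genes, Vcan and Acan, were among the 41 genes and were not listed. Among 62 ligands and receptors shed by or paired with ADAM proteins, 5 were listed, 3 higher and 2 lower, with a median of 1.71. Ereg, an EGF-family ligand made as a membrane precursor, had 2.84 to 7.48 normalized reads in sham and 35.8 to 82.0 in PAB (limma adjusted p = 0.000900). The neuregulin gene Nrg1 (2.36) and the angiotensin-converting enzyme gene Ace (1.71) were higher as well. The lower genes were Lgi3 and the Notch ligand Dll1 (-1.11), and the call for Dll1 was lost under median-ratio scaling (-0.52, adjusted p = 0.148). Ltbp2, Ereg, Nrg1, Ace and Dll1 each share exonic bases with another annotated gene, from 141 bases for Ereg to 867 for Dll1.

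**Figure D4:**
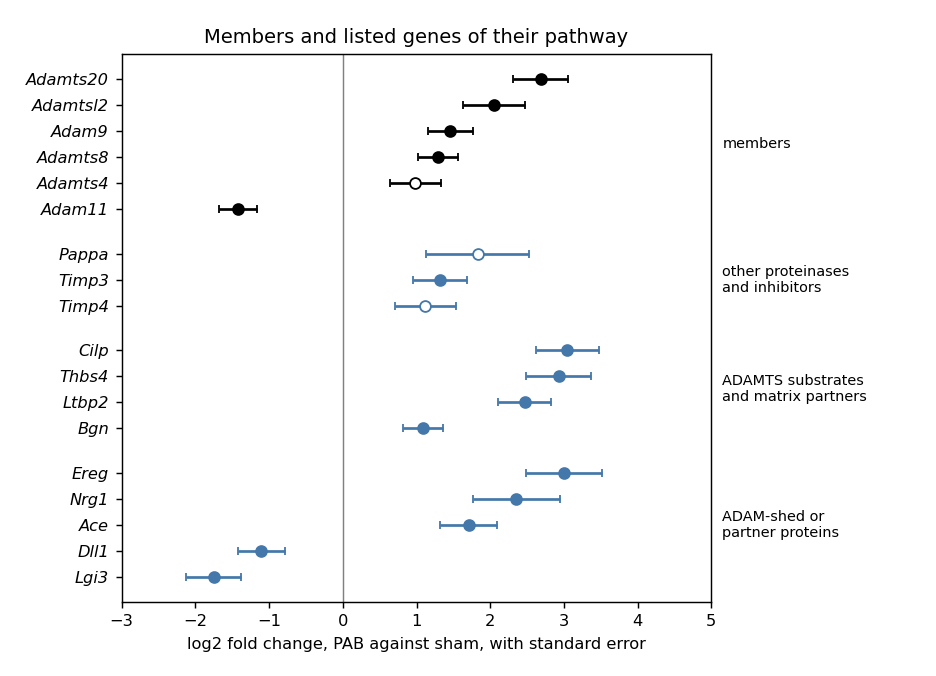
Log2 fold change (PAB against sham, limma, bar = standard error) of the 6 members (black) and of the 12 listed genes of the 3 lists (blue), with open circles for genes whose call was lost when some library was left out. Adam11, Dll1 and Lgi3 are the genes left of 0.

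The genes most like each member were found among 444 listed genes with a mean of at least 50 normalized reads, as those with the smallest root mean square difference between centred log2 values over the 6 libraries. This is a description of libraries that share group and depth. Adamts4 was nearest to C1qtnf1 (0.0768) and Pgam1 (0.112), and Adam9 was nearest to Svep1 (0.0941) and to Lox (0.0956), the collagen cross-linking enzyme lysyl oxidase. For Adamts8 the nearest genes were Nkd2 (0.130) and Tnfrsf23 (0.136), and for Adam11 they were Ttc12 (0.0946) and Rtn2 (0.117). Adamtsl2 was nearest to Igfbp3 (0.202), an IGF-binding protein, and Col9a2 (0.207). Adamts20 had the least close neighbours of the 6 members, Nppb (0.227) and Scube2 (0.285). C1qtnf1, Svep1, Lox and Tnfrsf23 share exonic bases with other annotated genes, and Pgam1 and Rtn2 share stretches of sequence with other transcripts, so their counts are less certain.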

How the data were processed

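Total RNA of the RV was sequenced in 6 libraries. Per the labels, the submitters' processing notes name HISAT2 2.0.5, StringTie 1.3.3b, featureCounts 1.5.0-p3 and the build mm10, and the authors compared the groups with DESeq2. The deposited values are named FPKM but are a normalized signal that the authors made by scaling read counts with size factors: every value of the 617 genes was a whole multiple of a library's step, within 0.001 of a step. 1 row, which gives an Ensembl identifier but ends before the gene name, stayed in the fit. Total depth is not known. The authors' own log2 fold changes and p-values, deposited in the same table from their comparison of the 2 groups, gave no result here and served only to check that every listed gene differs at least 2-fold in them. Values were fitted as log2(value + 1) in R 4.3.3 by lmFit and eBayes (trend on) of limma 3.58.1. Tests were two-sided at 0.05 on the Benjamini-Hochberg adjusted p over all listed genes, with no replicate block and a minimum mean of 0.1 that removed 0 genes. The fit was tested on simulated data. Positions, overlaps of exons and coding sequences came from GENCODE M21, and shared stretches (100 bases or more, 95% identity) were found with blastn 2.17.0. Named genes were all members, the listed genes of the lists and the 2 genes most like each member, with Thsd4 added after its values were seen. The members and lists were chosen with earlier results of these data known. Alternatives were a pseudocount of 0.1, no filter, a minimum mean of 1, median-ratio scaling, eBayes without trend, a replicate block, and leaving out each library.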

Additional observations from a re-analysis of the deposited data

How the results depend on the processing

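All 6 members kept their direction under every alternative run, and 5 kept their call, Adamts4 being the exception when 1 library was left out. Calls over all listed genes were 617 with a pseudocount of 0.1, with no filter and with a minimum mean of 1, 613 without trend, and 589 to 614 with 1 library left out. Median-ratio scaling over the listed genes raised the log2 fold changes by 0.587 at the median and gave 478 calls, 290 higher and 188 lower, so that 60.7% of calls were higher, beside 47.0%. Under it Adamts4 was at 1.57. A replicate block gave 616 calls, 289 higher and 327 lower. It kept all 6 members, with an adjusted p of 0.0275 for Adamts4, and lost Pappa (limma, adjusted p = 0.0511). Deviations of same-numbered libraries correlated at -0.0593, -0.0546 and -0.199. With so few libraries, and genes listed for their difference between the groups, these values cannot decide whether the numbers pair the samples. The cause of the changes between settings was not tested. The planned count tests on recovered reads were not run, because too few values were low enough for the recovery to be checked in each library.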
